A study of Homo sapiens with 12 samples.

Results

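The proteasome genes were taken as the rows on an assembled chromosome whose symbol is PSM, a letter from A to G, and a number. This gave 48 genes of the 46931 in the table. The rule uses symbols alone, and the family was picked with earlier results of these data known. PSMA1, PSMB5 and PSMD1, given as markers of the set, were detected in all 12 libraries, with no library below 87.0 CPM for any of them, that is counts relative to the TMM-scaled library size.

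The proteasome is the protease that degrades proteins tagged with ubiquitin. Its barrel-shaped 20S core has outer rings of alpha subunits and inner rings of beta subunits, some of which cut the substrate. A 19S cap recognises, unfolds and feeds in the substrate, PA28 activators can dock in place of the cap, and dedicated chaperones build the particle. Immune signals such as interferon exchange the cutting subunits PSMB6, PSMB5 and PSMB7 for PSMB9, PSMB8 and PSMB10, which favours peptides for MHC class I presentation.

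The cells were MCF10A, an immortalised, non-tumorigenic mammary epithelial line. The group siYT_XMU received 11 nM of siRNA sets aimed at YAP and TAZ, the transcriptional coactivators at the end of the Hippo pathway, and 48 h later 5 µM XMU-MP1 for 6 h. XMU-MP1 inhibits MST1 and MST2, kinases of that pathway. The group siYT_DMSO had these siRNA sets and then DMSO, siC_XMU had 22 nM control siRNA and then XMU-MP1, and siC_DMSO had control siRNA and DMSO. Each group had 3 libraries, lettered a, b and c. The labels do not say whether the letters stand for separate cultures, so p-values measure the spread between these libraries, which may be technical.

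Total counts lay between 8243351 and 67953633 per library. Library c of siYT_XMU was the shallowest and stood apart: ribosomal RNA genes took 35.0% of its counts, against 1.02% to 8.35% in the other 11 libraries, and the proteasome genes took 0.303%, against 0.625% to 0.797%. The count of proteasome genes called in each comparison is therefore given also without it. For the lists of genes around the proteasome only some counts are, and a count given once may depend on that library. The siRNA targets were low as labelled. YAP1 had 6.63, 3.81 and 5.39 CPM in siYT_XMU, against 132, 135 and 142 CPM in siC_XMU, and 12.6, 9.09 and 7.84 CPM in siYT_DMSO, against 201, 223 and 193 CPM in siC_DMSO. WWTR1, which encodes TAZ, had 2.11, 1.24 and 0 CPM in siYT_XMU, against 56.9, 60.3 and 56.0 CPM in siC_XMU, and 4.30, 4.47 and 3.66 CPM in siYT_DMSO, against 34.6, 24.0 and 38.2 CPM in siC_DMSO. The epithelial keratin KRT5 had 10008 counts or more in every library, but the epithelial markers did not keep 1 level. KRT5 had 2297, 1030 and 1282 CPM in siYT_DMSO, against 4236, 5086 and 4539 CPM in siC_DMSO, and KRT18 was lower as well. KRT17 had 9291, 3248 and 4503 CPM in siYT_DMSO, against 760, 760 and 550 CPM in siC_DMSO, and CDH1 was higher as well. KRT14 lay at 8.24 to 92.8 CPM over all libraries. Of 6 leukocyte markers, the pan-leukocyte marker PTPRC had 28 counts or fewer in every library. Its 27 counts in c of siYT_XMU came to 5.59 CPM, against 0.541 CPM or less elsewhere. LYZ had 5.03 and 58.6 CPM in b and c of siYT_XMU and 0.160 CPM or less elsewhere. The summed leukocyte markers lay at 26.1 to 96.8 CPM in siYT_XMU, 32.7 to 56.0 CPM in siYT_DMSO, 7.87 to 17 CPM in siC_XMU and 38.6 to 56.2 CPM in siC_DMSO. The summed 6 fibroblast markers lay at 23.5 to 135 CPM, 24.2 to 70.1 CPM, 15.9 to 26.9 CPM and 11.1 to 23.9 CPM in those groups. COL1A2 of that list had 2.84 and 33.4 CPM in b and c of siYT_XMU and 0.0697 CPM or less elsewhere. PDGFRA and DCN were highest in c of siYT_DMSO, at 8.26 and 30.7 CPM. The summed endothelial markers lay at 1.26 to 8.49 CPM in siYT_XMU and 0.918 to 3.82 CPM over the other groups. PECAM1 of that list had 5.12 and 8.49 CPM in b and c of siYT_XMU and 1.59 CPM or less elsewhere. CDH5 was highest in b of siC_DMSO, at 2.46 CPM. The part of these lists in the results was not tested.

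Of the 48 genes, 44 passed the filter on low counts and were tested among 18143 genes. The other 4, PSMB8, PSMB9, PSMA8 and PSMB11, had 0 counts in all 12 libraries. The limit set by such a zero is 3 counts, or 0.0382 to 0.622 CPM by library, and it reflects counting error only. PSMA8 is known as a testis subunit and PSMB11 as a thymus subunit. PSMB8 and PSMB9 are the inducible cutting subunits, and they flank TAP1, which encodes a peptide transporter, in the MHC region. All 7 genes that the table lists within 60000 bp of PSMB8, these 3 included, were at 0 in every library, so the zeros are not particular to these subunits. Other MHC genes were counted: HLA-B had 142 counts or more and HLA-C 865 or more in every library. Whether the 7 genes were off or left out of the counting was not tested. Whether PSMB8 and PSMB9 were expressed can therefore not be read from these zeros, and the limit above does not bound it.

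The promoter windows of the 4 genes called after knockdown are shown first, because the results turn on these genes. Each window is the 250 bases before a transcription start in RefSeq (GRCh38.p14), read 5′ to 3′ on the gene's strand, which is the minus strand for all 4. The windows are chr21:39183452-39183701 for PSMG1, chr14:24146611-24146860 for PSME2, chr16:67936851-67937100 for PSMB10 and chr11:14520387-14520636 for PSMA1. For PSMG1, PSME2 and PSMA1 this start lies inside the span that the deposited table gives for the gene. Capitals mark matches to the motifs searched, on either strand.
PSMG1: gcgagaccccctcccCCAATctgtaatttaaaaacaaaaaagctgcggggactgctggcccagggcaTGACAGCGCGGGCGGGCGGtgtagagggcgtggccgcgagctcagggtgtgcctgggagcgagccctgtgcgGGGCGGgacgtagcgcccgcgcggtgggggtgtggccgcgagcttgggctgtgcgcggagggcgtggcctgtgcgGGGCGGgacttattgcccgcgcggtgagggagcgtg
PSME2: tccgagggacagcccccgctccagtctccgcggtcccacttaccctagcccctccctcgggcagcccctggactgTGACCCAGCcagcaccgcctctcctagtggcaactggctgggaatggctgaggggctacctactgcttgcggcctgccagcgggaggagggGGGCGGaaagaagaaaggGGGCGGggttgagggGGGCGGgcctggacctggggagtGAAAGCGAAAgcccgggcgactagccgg
PSMB10: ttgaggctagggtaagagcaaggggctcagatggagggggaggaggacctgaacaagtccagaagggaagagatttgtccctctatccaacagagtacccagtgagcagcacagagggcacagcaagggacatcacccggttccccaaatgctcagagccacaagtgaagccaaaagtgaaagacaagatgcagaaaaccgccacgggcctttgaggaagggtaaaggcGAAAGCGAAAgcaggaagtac
PSMA1: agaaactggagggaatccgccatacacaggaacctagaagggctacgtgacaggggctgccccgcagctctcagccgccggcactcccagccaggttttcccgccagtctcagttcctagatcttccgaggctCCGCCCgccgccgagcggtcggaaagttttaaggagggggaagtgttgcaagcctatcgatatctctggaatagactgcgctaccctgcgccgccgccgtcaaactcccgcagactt

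The motifs were the core of the antioxidant response element, which NRF factors bind (TGACNNNGC), the CCAAT box (CCAAT), the ETS core (CCGGAA), the GC box (GGGCGG), the GAS element of STAT factors (TTCNNNGAA) and the IRF element of interferon regulatory factors (GAAANNGAAA). The IRF element was added to the search after these windows had been read. In the PSMG1 window the capitals are a CCAAT box, a response element core that adjoins a GC box, and further GC boxes, 4 in all. PSME2 has a response element core, 3 GC boxes and an IRF element 28 bases before the start. PSMB10 has only an IRF element, 21 bases before the start, and PSMA1 only a GC box, on the opposite strand.

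Windows were matched for 42 of the 48 genes. The IRF element was in 5 of the 42 (11.9%), against 3.71% of all 27305 genes with a window. The 5 were PSMA4, PSMB4, PSMB10, PSME2 and PSMG4, so the element was in genes that fell after knockdown and in genes that were not called. The response element core was in 13 (31.0%), against 13.2% of all genes, and the ETS core in 18 (42.9%), against 17.2%. The GC box was in 26 (61.9%), against 46.2%, the CCAAT box in 19 (45.2%), against 37.0%, and the GAS element in 7 (16.7%), against 8.09%. These shares describe letters in a window and were not tested.

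In control cells the proteasome genes were highly expressed. On the FPKM scale, which divides by the length assigned to each gene, the median level in siC_DMSO was 70.5 over the 44 tested proteasome genes and 2.65 over all genes tested. The highest was PSMA7, a subunit of the alpha ring, at 448 ± 41.8 FPKM (SD, n = 3). The lowest of those tested was PSMG4, a chaperone of 20S assembly, at 1.10 ± 0.205 FPKM. Subunits of a ring are present in equal number in the finished particle, and their FPKM levels were not equal. The alpha-ring genes ran over an 11.9-fold range, down to PSMA4 at 37.8 ± 2.18 FPKM, and the 19S ATPases, the motor of the cap, over a 7.40-fold range, with PSMC3 at 183 ± 1.13 FPKM and PSMC1 at 24.8 ± 0.746 FPKM. These ranges depend on the length assigned to each gene. In CPM, which divides by no length, PSMA4 had 152, 166 and 148 in siC_DMSO. PSMA3 had less, at 146, 143 and 125 CPM, though its mean of 154 FPKM was higher. How far the mRNA levels themselves differed was not tested.

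**Figure D1:**
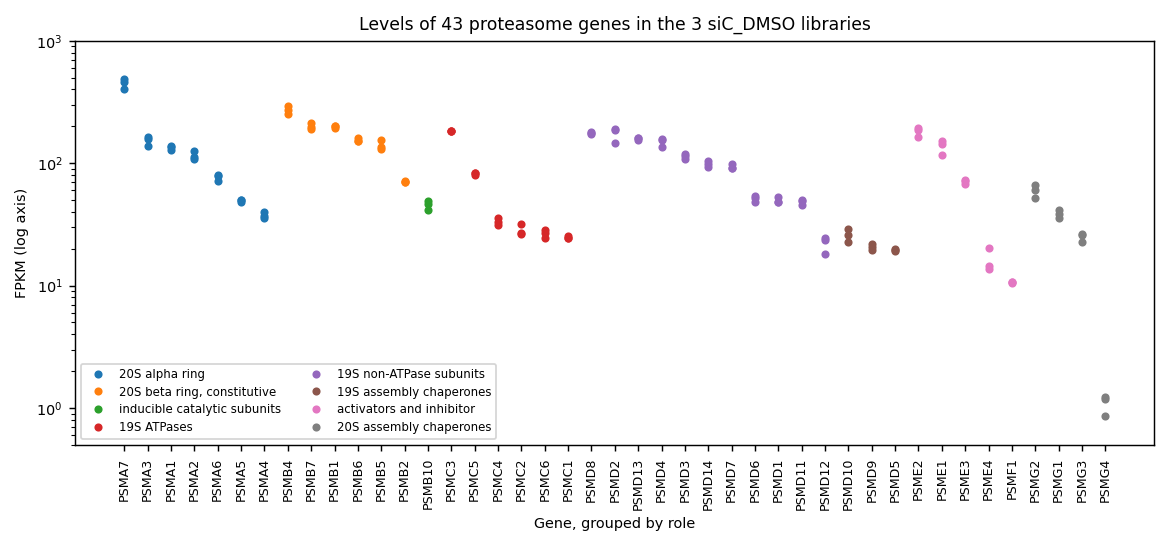
FPKM (log axis) of 43 proteasome genes in the 3 siC_DMSO libraries, grouped by role, 1 point per library, with genes ordered by their mean within a role. PSMB3 is left out because 1 of these libraries lists it near 0; PSMA7 is highest at a mean of 448 FPKM, and the assembly chaperone PSMG4 lies far below the other genes at 1.10 FPKM.

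The 3 constitutive cutting subunits had closer levels, with PSMB7 (trypsin-like) at 201 ± 12 FPKM, PSMB6 (caspase-like) at 155 ± 3.90 FPKM and PSMB5 (chymotrypsin-like) at 141 ± 12.5 FPKM. PSMB10, the inducible counterpart of PSMB7, was at 45.9 ± 3.94 FPKM. The non-ATPase subunits of the cap ran from PSMD12 at 22.0 ± 3.49 FPKM to PSMD8 at 175 ± 3.33 FPKM. The chaperones of cap assembly, PSMD5, PSMD9 and PSMD10, were all between 19.6 and 25.7 FPKM. Among activators and inhibitor, PSME2 of PA28 was highest at 180 ± 16.1 FPKM and PSMF1, a proteasome inhibitor protein gene, lowest at 10.6 ± 0.0856 FPKM.

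The first comparison asks what loss of YAP and TAZ did without the inhibitor. Most subunit genes stayed within narrow limits, while 4 genes fell: PSMG1, an assembly chaperone, PSME2, an activator subunit, PSMB10, the inducible cutting subunit, and PSMA1 of the alpha ring. With edgeR's quasi-likelihood test and Benjamini-Hochberg adjustment at 0.05, 4 of the 44 tested genes were called lower (16.0% of all genes tested were) and 0 higher (16.1% of all genes tested). In either direction this is 9.09% of the proteasome genes, against 32.1% of all genes tested and 47.3% of tested genes with a mean FPKM of at least 10, a level that 42 of the 44 reach. At an unadjusted p under 0.05 there were 6 of the 44 in either direction, and DESeq2 called 1 higher. The small share depends on the shallow library, which is in neither group. Without it 9 of the 44 were called lower and 6 higher, against 37.0% of all genes in either direction. In bulk RNA, fewer cells of a kind and less RNA per cell cannot be told apart.

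PSMG1 forms with PSMG2 the chaperone pair that starts assembly of the alpha ring. It had 21.6, 19.2 and 20.4 CPM in siYT_DMSO, against 75.2, 71.0 and 64.9 CPM in siC_DMSO. The groups were far apart, with no library of either within reach of the other. The level was 3.45-fold lower (log2 fold change -1.79, SE 0.20, 95% interval -2.22 to -1.35, adjusted p = 4.75e-05, edgeR), and this call held under each alternative run.

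PSME2 encodes the beta subunit of the PA28 activator. It had 70.9, 54.6 and 75.8 CPM in siYT_DMSO, against 138, 167 and 159 CPM in siC_DMSO. All 3 knockdown libraries lay below all 3 control libraries, 2.31-fold lower in the fit (log2 fold change -1.21, SE 0.23, adjusted p = 0.00171, edgeR). Its partner PSME1, the alpha subunit, had 102, 100 and 120 CPM in siYT_DMSO, against 123, 152 and 160 CPM in siC_DMSO. Its libraries did not overlap either, but it was not called (log2 fold change -0.43, SE 0.24, adjusted p = 0.206, edgeR). The FPKM ratio of PSME2 to PSME1 was 0.860, 0.676 and 0.784 in siYT_DMSO, against 1.40, 1.36 and 1.23 in siC_DMSO.

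PSMB10 had 17.8, 13.1 and 21.9 CPM in siYT_DMSO, against 40.5, 36.9 and 43.6 CPM in siC_DMSO. The groups did not overlap, and the level was 2.29-fold lower (log2 fold change -1.20, SE 0.31, adjusted p = 0.0109, edgeR). Without library b of siYT_DMSO, its lowest, PSMB10 missed the threshold (log2 fold change -1.03, adjusted p = 0.0525). PSMB7, the constitutive subunit whose place PSMB10 takes, had 243, 266 and 250 CPM in siYT_DMSO, against 168, 191 and 176 CPM in siC_DMSO. It lay higher in every knockdown library without being called (log2 fold change 0.51, SE 0.23, adjusted p = 0.12, edgeR). The FPKM ratio of PSMB10 to PSMB7 was 0.0737, 0.0496 and 0.0884 in siYT_DMSO, against 0.243, 0.195 and 0.25 in siC_DMSO.

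PSMA1 had 152, 146 and 142 CPM in siYT_DMSO, against 248, 258 and 236 CPM in siC_DMSO. This is 1.69-fold lower, with tight groups that did not overlap (log2 fold change -0.75, SE 0.20, adjusted p = 0.0125, edgeR), though on the log2(FPKM + 0.1) scale PSMA1 missed the threshold in limma (adjusted p = 0.0545). The other 6 alpha-ring genes were not called. Among them PSMA3 was the lowest relative to control (log2 fold change -0.49, SE 0.22, adjusted p = 0.11) and PSMA6 the one with a fold change above 0, at 221, 221 and 239 CPM in siYT_DMSO, against 200, 209 and 185 CPM in siC_DMSO.

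**Figure D2:**
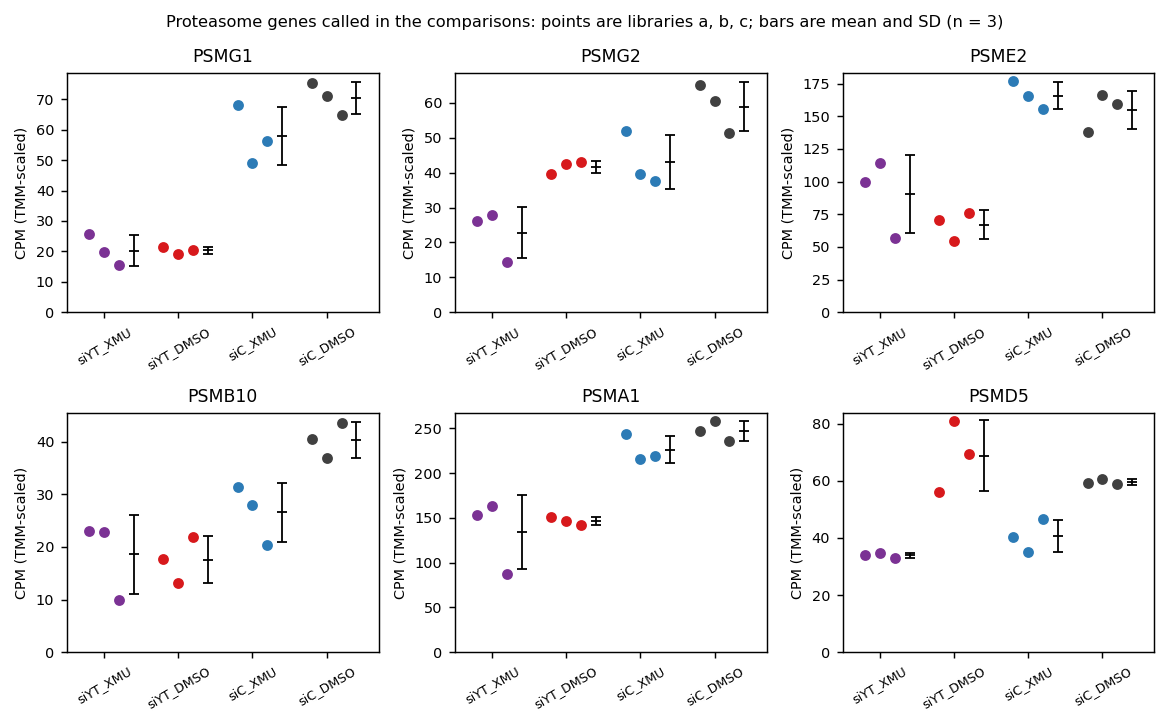
CPM (TMM-scaled) of 6 called proteasome genes in each library of siYT_XMU, siYT_DMSO, siC_XMU and siC_DMSO, with each group's mean and SD (n = 3) beside its points. PSMG1 separates the siYT groups (25.6 CPM at most) from the siC groups (49.2 CPM at least), PSME2, PSMB10 and PSMA1 are lower in siYT_DMSO than in siC_DMSO, and PSMD5 is lowest in siYT_XMU.

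The remaining genes showed how small most differences were. For 36 of the 44 the 95% interval of the log2 fold change lay within -1 and 1, that is within a 2-fold change either way, against 21.1% of all genes tested and 43% of those with a mean FPKM of at least 10. On the log2(FPKM + 0.1) scale that count was 23 of the 44. The median log2 fold change was -0.02 over the 44 genes and 0.02 over all genes tested. Their summed level, without PSMB3, was 6580, 6753 and 7150 CPM in siYT_DMSO, against 6457, 6901 and 6664 CPM in siC_DMSO, and the groups overlapped. The libraries of both groups did not overlap for 12 genes that lay higher in siYT_DMSO (26.2% of all genes) and for 14 that lay lower (27.9% of all genes). Over the 44 genes these are shares near the background, so order alone did not set the proteasome genes apart.

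**Figure D3:**
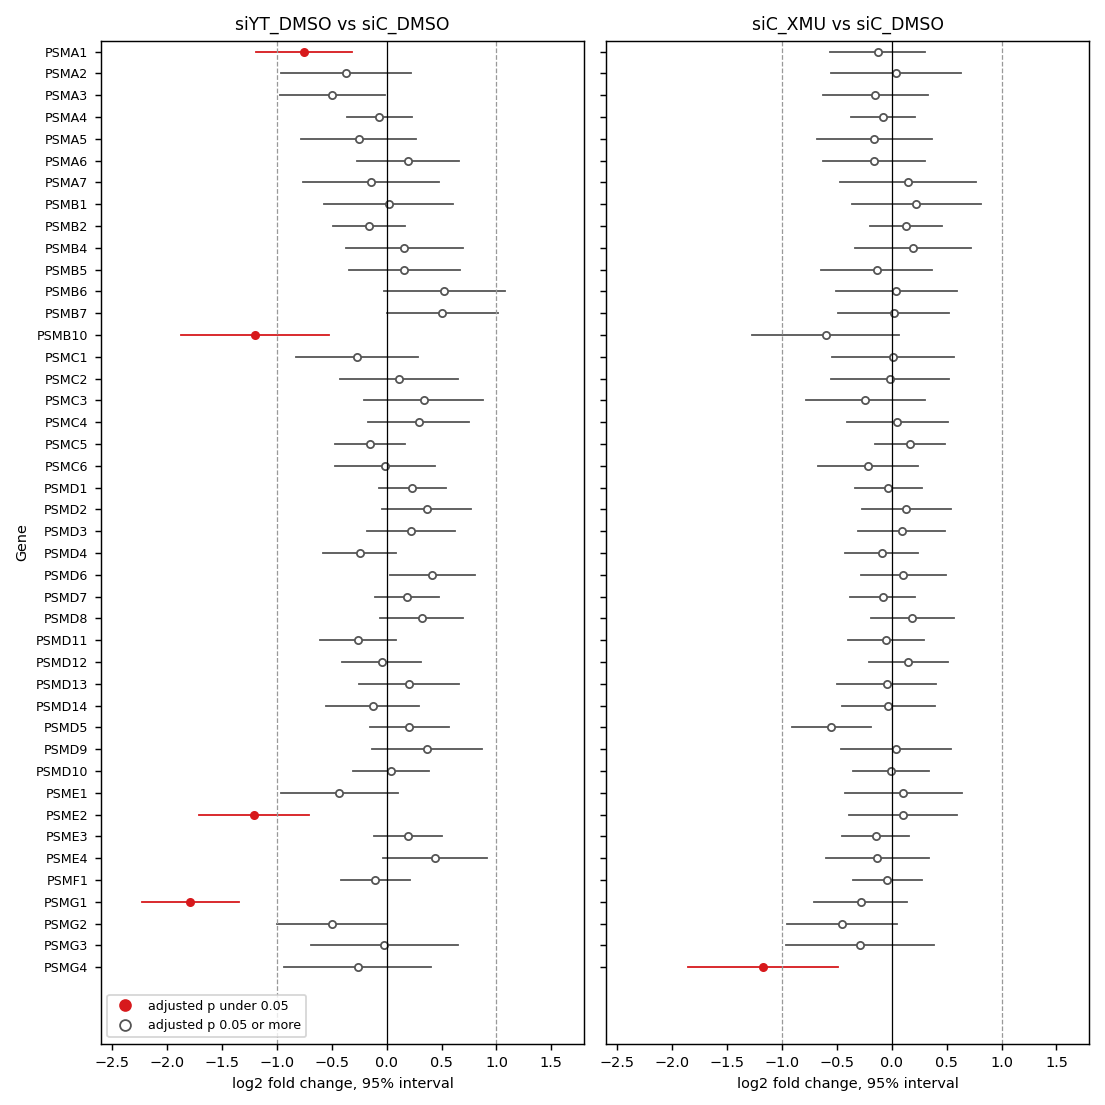
Log2 fold changes with 95% intervals of 43 proteasome genes in siYT_DMSO against siC_DMSO (left) and in siC_XMU against siC_DMSO (right), filled red where the adjusted p of edgeR was under 0.05, with dashed lines at a 2-fold change; PSMB3 is left out for its wide interval. PSMG1, PSME2, PSMB10 and PSMA1 are called on the left and PSMG4 on the right, and most intervals lie between the dashed lines.

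The shallow library is in neither of these groups but was part of the fit. Without it, 9 of the 44 genes were called lower and 6 higher, against 37.0% of all genes tested in either direction, so the proteasome share (34.1%) was then near the background, and below the 56.3% of genes with a mean FPKM of at least 10. The 5 further lower genes were PSMA2, PSMA3, PSMC1, PSME1 and PSMG2. The 6 higher genes were the cutting subunits PSMB6 and PSMB7, the ATPase PSMC3, the cap subunits PSMD6 and PSMD8 and the cap chaperone PSMD9. PSMB6 had 189, 169 and 166 CPM in siYT_DMSO, against 119, 120 and 125 CPM in siC_DMSO (log2 fold change 0.52 and adjusted p = 0.00572 without the shallow library, 0.53 and 0.137 with it, edgeR). The interval then lay within 2-fold for 40 of the 44, against 24.1% of all genes and 49.1% of the abundant ones.

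PSMD1, a scaffold of the cap, had 195, 239 and 250 CPM in siYT_DMSO, against 186, 206 and 189 CPM in siC_DMSO, and the groups overlapped (log2 fold change 0.23, SE 0.14, adjusted p = 0.233, edgeR). PSMB5 had 192, 220 and 208 CPM in siYT_DMSO, against 171, 204 and 178 CPM in siC_DMSO, and overlapped as well (log2 fold change 0.16, SE 0.23, adjusted p = 0.646, edgeR).

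The second comparison asks what inhibition of MST1 and MST2 did in cells with control siRNA. The proteasome genes barely moved: PSMG4 fell, and 1 of 44 was called lower (5.26% of all genes tested) and 0 higher (4.0%; 9.26% in either direction), with 2 at an unadjusted p under 0.05. DESeq2 called 2 lower and 0 higher. Without the shallow library 2 were called lower (7.95% of all genes) and 0 higher (5.90%), against 13.9% of all genes in either direction. For 41 of the 44 the interval lay within a 2-fold change, against 31.4% of all genes tested and 67.4% of those with a mean FPKM of at least 10. Without the shallow library that count was again 41, against 34.3% and 73.0%.

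PSMG4 is a chaperone of 20S assembly that works with PSMG3. It had 6.09, 3.68 and 4.52 CPM in siC_XMU, against 11.6, 8.5 and 12.2 CPM in siC_DMSO. The groups did not overlap, at counts of 211 to 304 in siC_XMU and 667 to 883 in siC_DMSO (log2 fold change -1.18, SE 0.31, adjusted p = 0.0366, edgeR). The call of PSMG4 was lost in 8 of the 19 alternatives run. These included leaving out library a, b or c of siC_DMSO, b or c of siC_XMU or c of siYT_DMSO, with adjusted p between 0.0546 and 0.166. PSMD5, a chaperone of cap assembly, had 40.3, 35.1 and 46.6 CPM in siC_XMU, against 59.4, 60.7 and 58.8 CPM in siC_DMSO. Every treated library was lower, and the adjusted p was 0.0589 with all libraries and 0.0395 without the shallow one (log2 fold change -0.55, SE 0.17, edgeR). PSMB10 had 31.3, 28 and 20.4 CPM in siC_XMU, against 40.5, 36.9 and 43.6 CPM in siC_DMSO, did not overlap, and was not called (log2 fold change -0.60, SE 0.31, adjusted p = 0.266, edgeR).

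The third comparison asks what the inhibitor did after knockdown. PSMD5 and PSMG2 fell, and 2 of 44 genes were called lower (7.92% of all genes tested) and 0 higher (4.19%), with 5 at an unadjusted p under 0.05 and 2 called higher by DESeq2. The interval lay within a 2-fold change for 39 of the 44, against 29.8% of all genes and 64.5% of those with a mean FPKM of at least 10. On the log2(FPKM + 1) and log2(FPKM + 0.1) scales that count was 15 and 12 of the 44. PSMD5 had 34.2, 34.6 and 32.9 CPM in siYT_XMU, against 56.1, 80.9 and 69.5 CPM in siYT_DMSO. The groups lay well apart, 2.03-fold lower with the inhibitor (log2 fold change -1.02, SE 0.17, adjusted p = 0.00265, edgeR). This fall of PSMD5 was as large without the shallow library (log2 fold change -1.0, adjusted p = 0.00583), and the difference between its inhibitor effects in knockdown and control cells was not called (log2 difference -0.47, SE 0.23, adjusted p = 0.317).

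PSMG2 had 26.2, 27.8 and 14.5 CPM in siYT_XMU, against 39.7, 42.4 and 43 CPM in siYT_DMSO. The groups did not overlap, and the shallow library was the lowest (log2 fold change -0.85, SE 0.23, adjusted p = 0.0336; -0.63 and 0.0355 without that library, edgeR). The PSMG2 call was lost in 7 of the 19 alternatives run, with adjusted p up to 0.106. These included leaving out library a, b or c of siYT_DMSO, a or b of siC_DMSO or b of siC_XMU, with adjusted p between 0.0514 and 0.10. PSMG2 also overlaps SPIRE1 and CEP76 on the opposite strand, whose summed counts are 105% and 28.8% of its own.

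Without the shallow library 7 genes were called higher and 2 lower in this comparison, against 6.65% and 8.37% of all genes. In either direction this was 20.5% of the 44, against 15.0% of all genes and 24.4% of those with a mean FPKM of at least 10, and the interval lay within 2-fold for 40 of the 44, against 63.8% of those abundant genes. The 7 were PSMA7, PSMB1, PSMB2, PSMB4, PSMB6, PSMD8 and PSME2, of which 4 are beta-ring subunits. The median log2 fold change of the 44 genes was then 0.24, against 0.05 over all genes, and 0.04 and 0.02 with the library. The summed level without PSMB3 was 7557, 8700 and 5132 CPM in siYT_XMU, against 6580, 6753 and 7150 CPM in siYT_DMSO, so the group's highest and lowest sums lay on either side of the DMSO libraries. PSMB4, a beta-ring subunit, shows how that library differs from its group: it had 328, 401 and 169 CPM in siYT_XMU, against 240, 256 and 259 CPM in siYT_DMSO. PSME2 had 99.6, 115 and 56.8 CPM in siYT_XMU, against 70.9, 54.6 and 75.8 CPM in siYT_DMSO, and the groups overlapped through the shallow library (log2 fold change 0.43 with adjusted p = 0.246; 0.67 and 0.0181 without it, edgeR).

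**Figure D4:**
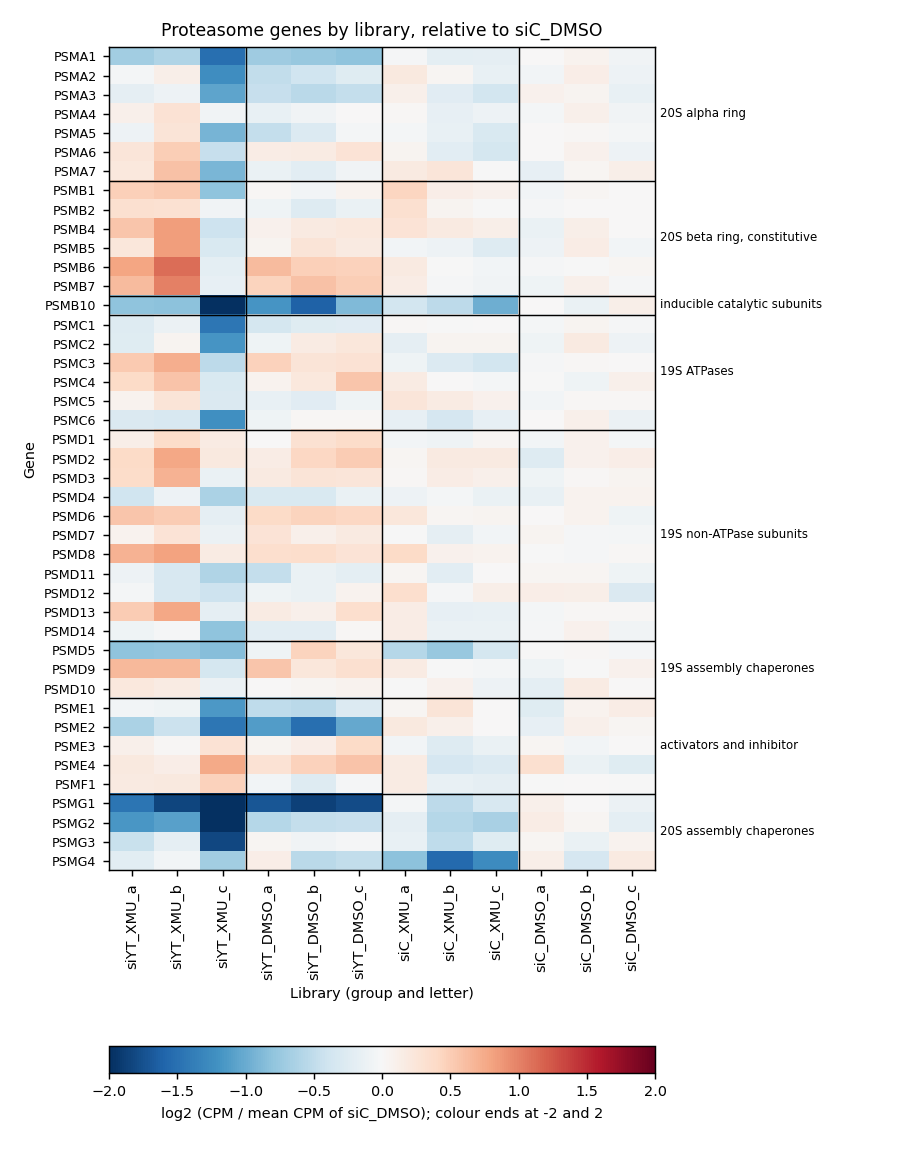
Log2 ratio of CPM to the mean of siC_DMSO for 43 proteasome genes (rows, by role; PSMB3 left out) in the 12 libraries (columns), blue for lower and red for higher, with the colour ending at -2 and 2. PSMG1 is blue in all 6 siYT libraries, most rows are pale, and library c of siYT_XMU is bluer than libraries a and b of its group in most rows.

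The fourth comparison asks what knockdown did in cells that all had the inhibitor. It shares no library with the comparison in DMSO. PSMG1, PSMG2, PSME2 and PSMA1 fell and PSMG4 rose, so 4 of 44 were called lower (18.6% of all genes tested) and 1 higher (17.7%). In either direction this was 11.4% of the 44, against 36.4% of all genes and 46.7% of those with a mean FPKM of at least 10. Without the shallow library 4 were called lower and 12 higher, against 38.1% of all genes in either direction, and the 12 included PSMB4, PSMB5, PSMB6 and PSMB7 of the beta ring.

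PSMG1 had 25.6, 19.7 and 15.5 CPM in siYT_XMU, against 68.2, 49.2 and 56.2 CPM in siC_XMU. It was 2.83-fold lower with no overlap (log2 fold change -1.50, SE 0.20, adjusted p = 0.000154, edgeR), and the call held under each alternative run. PSMA1 had 153, 163 and 87.0 CPM in siYT_XMU, against 244, 215 and 220 CPM in siC_XMU. It did not overlap either (log2 fold change -0.75, SE 0.20, adjusted p = 0.012; -0.52 and 0.00366 without the shallow library, edgeR). PSME2 had 99.6, 115 and 56.8 CPM in siYT_XMU, against 177, 165 and 156 CPM in siC_XMU. All knockdown libraries were lower (log2 fold change -0.87, SE 0.23, adjusted p = 0.0107; -0.64 and 0.0103 without the shallow library, edgeR).

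PSMG2 had 26.2, 27.8 and 14.5 CPM in siYT_XMU, against 51.9, 39.5 and 37.7 CPM in siC_XMU (log2 fold change -0.90, SE 0.23, adjusted p = 0.0101, edgeR). PSMG4 had 9.27, 10.3 and 6.63 CPM in siYT_XMU, against 6.09, 3.68 and 4.52 CPM in siC_XMU. The PSMG4 groups did not overlap, though narrowly (log2 fold change 0.89, SE 0.31, adjusted p = 0.0434, edgeR). This call was lost in 13 of the 19 alternatives run, with adjusted p up to 0.523 and a log2 fold change down to 0.139. These included leaving out any library of siC_DMSO, b or c of siC_XMU, b or c of siYT_DMSO or a or b of siYT_XMU. For these omissions the adjusted p was between 0.0563 and 0.158. PSMB10 had 23, 22.9 and 9.94 CPM in siYT_XMU, against 31.3, 28 and 20.4 CPM in siC_XMU, and the groups overlapped (log2 fold change -0.50, SE 0.31, adjusted p = 0.229, edgeR).

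The interaction asks whether the inhibitor acted differently after knockdown. It was called for 0 of the 44 genes, against 2.59% of all genes tested, with 1 at an unadjusted p under 0.05 and 0 called by DESeq2. That gene was PSMG4 (log2 difference 1.15, SE 0.44, adjusted p = 0.185, edgeR), and a p that misses the threshold does not show that the effects were alike. Without the shallow library the count was 0 as well, against 5.24% of all genes, with 9 at an unadjusted p under 0.05.

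PSMB3, a beta-ring subunit, had a pattern of its own. It had 3491, 4188 and 239 counts in siYT_XMU, 0, 3457 and 3 in siYT_DMSO, 0, 0 and 4866 in siC_XMU and 5196, 27 and 4444 in siC_DMSO. High and near-zero libraries occurred together within 3 of the 4 groups, so no comparison of PSMB3 was called and its intervals were wide (log2 fold change -1.07, 95% interval -6.23 to 4.09 in siYT_DMSO against siC_DMSO). Some neighbouring genes on chromosome 17 switched as well, but MLLT6 did not, with 91 to 2821 counts over the libraries. PIP4K2B was at 0 in 10 libraries and had 1039 and 1203 counts in b and c of siC_XMU. CISD3, a mitochondrial iron-sulphur protein gene, was at 0 in 4 libraries and reached 1912 counts, and CWC25, a splicing factor gene, was at 0 in 7 and reached 1038. Of the 5 libraries in which PSMB3 had 27 counts or fewer, CWC25 was at 0 in 4 and CISD3 in 1. Of 9600 genes that reach 1000 counts in some library, 397 (4.14%) have another library at 3 counts or fewer, and PSMB3 was the 1 such gene among 43 proteasome genes that reach it.

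**Figure D5:**
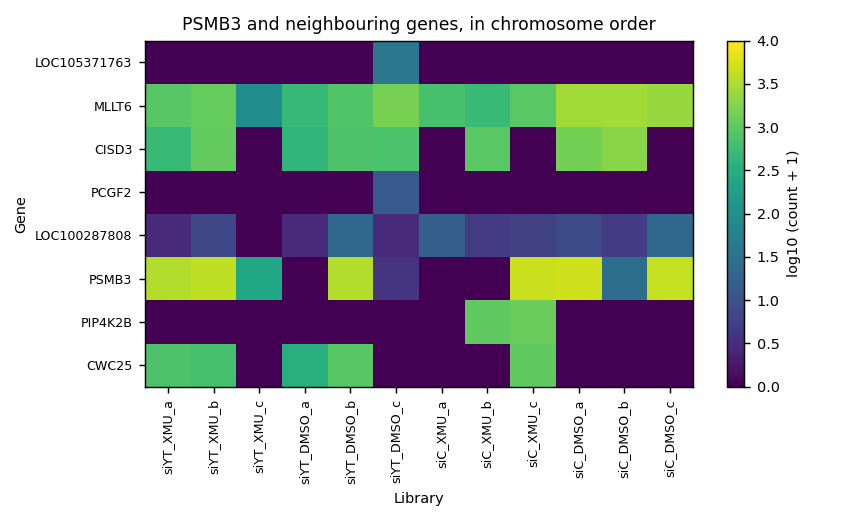
Log10 of count + 1 for PSMB3 and the genes the table lists within 60000 bp, in chromosome order (rows), in the 12 libraries (columns), with dark cells at 0 counts. PSMB3 is bright in 6 libraries at 3457 to 5196 counts, intermediate in c of siYT_XMU and dark or nearly so in the other 5, of which CWC25 is at 0 in 4 and CISD3 in 1.

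The genes around the proteasome were read from lists chosen beside the subunits. Their counts stand beside the shares of all genes called. These shares were 16.1% higher and 16.0% lower in siYT_DMSO against siC_DMSO, 4.0% and 5.26% in siC_XMU against siC_DMSO, 4.19% and 7.92% in siYT_XMU against siYT_DMSO, and 17.7% and 18.6% in siYT_XMU against siC_XMU. Without the shallow library the shares were, in the same order, 18.2% and 18.8%, 5.90% and 7.95%, 6.65% and 8.37%, and 19.3% and 18.7%. With 6 to 12 genes a list, 1 gene is at least 8.33% of it, so small counts are no result about a list. Of 12 proteasome-associated proteins, 2 rose and 4 fell in siYT_DMSO against siC_DMSO. ZFAND5, a proteasome-activating zinc finger protein, had 230, 315 and 259 CPM in siYT_DMSO, against 46.4, 46.1 and 42.8 CPM in siC_DMSO, which is 5.94-fold higher with no overlap (log2 fold change 2.57, SE 0.27, adjusted p = 2.82e-05, edgeR). AKIRIN2, which brings proteasomes into the nucleus, had 60.8, 69.3 and 80.8 CPM in siYT_DMSO, against 34.2, 31.5 and 30.8 CPM in siC_DMSO (log2 fold change 1.13, adjusted p = 0.000251, edgeR). PAAF1, an ATPase-binding assembly factor of the cap, had 10.6, 7.81 and 13.1 CPM in siYT_DMSO, against 25.5, 25.7 and 29.3 CPM in siC_DMSO (log2 fold change -1.36, adjusted p = 0.00231, edgeR). POMP, the maturation factor of the core, was not called (log2 fold change 0.16, adjusted p = 0.693). Of these 12 genes, 0 rose and 1 fell in siC_XMU against siC_DMSO, 0 rose and 3 fell in siYT_XMU against siYT_DMSO, and 2 rose and 1 fell in siYT_XMU against siC_XMU. The last 2 of these comparisons had 1 higher and 2 lower, and 1 higher and 1 lower, without the shallow library. Several of these calls were not stable over the 19 alternatives run. ECPAS, a proteasome adaptor, lost its call in 8 of them in siC_XMU against siC_DMSO and in 12 in siYT_XMU against siYT_DMSO. FBXO7 lost it in 10 in siYT_XMU against siYT_DMSO. In siYT_XMU against siC_XMU, ZFAND5 lost its call in 12, PAAF1 in 9, and AKIRIN2 in 11 with a change of sign in 2 more.

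Of 10 genes in the transcriptional control of proteasome genes, 2 rose and 1 fell in siYT_DMSO against siC_DMSO, and 4 rose and 1 fell without the shallow library. The factor NFE2L1 (NRF1), which drives subunit genes when proteasome activity is low, had 341, 611 and 440 CPM in siYT_DMSO, against 314, 358 and 324 CPM in siC_DMSO, and the groups overlapped (log2 fold change 0.48, SE 0.21, adjusted p = 0.101, edgeR). DDI2, the protease that activates NRF1, had 78.4, 122 and 64.5 CPM in siYT_DMSO, against 28.6, 29.0 and 32.0 CPM in siC_DMSO (log2 fold change 1.56, adjusted p = 0.000213, edgeR). SYVN1, a ubiquitin ligase of the endoplasmic reticulum, rose with knockdown (log2 fold change 1.12, adjusted p = 7.22e-05) and with the inhibitor in control cells (0.84, adjusted p = 0.00309, edgeR), a call lost on both FPKM scales (adjusted p up to 0.0803). NFE2L2 (NRF2), the oxidative stress factor, had 77.2, 81.2 and 95.7 CPM in siYT_XMU, against 148, 150 and 153 CPM in siC_XMU, and fell (log2 fold change -0.83, adjusted p = 0.00321, edgeR). In the other comparisons 1 of the 10 rose and 0 fell in siC_XMU against siC_DMSO, 0 rose and 3 fell in siYT_XMU against siYT_DMSO, and 3 rose and 3 fell in siYT_XMU against siC_XMU. In siYT_XMU against siYT_DMSO, MAFG lost its call in 11 of the 19 alternatives and NFE2L2 in 8, while KEAP1 kept its call. In siC_XMU against siC_DMSO 1 rose and 2 fell without the shallow library. Those that fell were MAFF (log2 fold change -0.59, adjusted p = 0.0190) and NFE2L3 (-0.68, adjusted p = 0.0283, edgeR). In siYT_XMU against siYT_DMSO 0 rose and 2 fell without it.

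Of 6 ubiquitin and E1 enzyme genes, edgeR called 0 in each of the 5 tests, with 1 at an unadjusted p under 0.05 in siYT_XMU against siC_XMU and 0 in the others. Leaving out the shallow library gave 2 of the 6 called higher in siYT_XMU against siYT_DMSO and 2 in siYT_XMU against siC_XMU. Of 8 genes for ubiquitin shuttles and the VCP segregase, which carry substrates to the proteasome, 2 rose and 1 fell in siYT_DMSO against siC_DMSO. Those that rose were the shuttle UBQLN2 (log2 fold change 1.17) and the VCP cofactor NPLOC4 (1.01). With the inhibitor 0 of the 8 were called in control cells, and without the shallow library 1 was called higher, VCP (log2 fold change 0.60, adjusted p = 0.0317, edgeR). With all libraries 2 fell in siYT_XMU against siYT_DMSO, and 2 rose and 1 fell in siYT_XMU against siC_XMU. Of the 2 that rose, UBQLN4 lost its call in 6 of the 19 alternatives, and NPLOC4 in 5 with a change of sign in 2 more. RAD23B, which fell there, kept its call in all 19.

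Of 12 tested genes of MHC class I antigen processing, 4 fell and 0 rose in siYT_DMSO against siC_DMSO, and 6 of 13 fell and 0 rose without the shallow library. IRF1, an interferon regulatory factor, had 21.6, 23.3 and 38.4 CPM in siYT_DMSO, against 79.6, 96.7 and 93.7 CPM in siC_DMSO (log2 fold change -1.70, SE 0.28, adjusted p = 0.000669, edgeR), and its call held under the 19 alternatives run. NLRC5, the MHC class I transactivator, had 4.63, 7.46 and 6.42 CPM in siYT_DMSO, against 10.5, 13 and 14.4 CPM in siC_DMSO (log2 fold change -1.03, adjusted p = 0.0372, edgeR). The NLRC5 call was lost in 10 of the 19, namely without any 1 library of siC_DMSO or siYT_DMSO, without b or c of siC_XMU, without the filter and on log2(FPKM + 0.1), with adjusted p up to 0.128. The other members that fell were ERAP1, a peptide-trimming protease (log2 fold change -1.23, adjusted p = 0.0194), and PDIA3, a chaperone of peptide loading (-0.46). Both lost their calls without b or c of siC_DMSO or without a or b of siYT_DMSO, with adjusted p up to 0.0788 for ERAP1 and 0.122 for PDIA3, and PDIA3 also without the filter. In siC_XMU against siC_DMSO 2 of the 12 fell, again IRF1, at 21.3, 37.0 and 41.3 CPM in siC_XMU, against 79.6, 96.7 and 93.7 CPM in siC_DMSO (log2 fold change -1.44, adjusted p = 0.00821), and NLRC5 (-1.43, adjusted p = 0.0246). In this comparison IRF1 held its call in the 19 alternatives, and NLRC5 lost it without any 1 library of either group and on log2(FPKM + 0.1), with adjusted p up to 0.101. The number that fell was 3 of 13 without the shallow library. Both comparisons share the siC_DMSO libraries. In siYT_XMU against siYT_DMSO 0 of the 12 were called, and in siYT_XMU against siC_XMU 1 fell, ERAP1 (log2 fold change -1.18, adjusted p = 0.0227), a call lost in 4 of the 19 alternatives (adjusted p up to 0.0774). Of 13 tested without the shallow library, 1 rose and 0 fell in siYT_XMU against siYT_DMSO, and 2 fell in siYT_XMU against siC_XMU.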

How the data were processed

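RNA of 12 MCF10A samples was measured by RNA-seq. The deposited counts are whole numbers per gene, and how the authors counted reads is not given in the sources used here. The deposited FPKM values are the authors' too, per the file headers, with 0 written as 0.0001. The submitters' processing notes name cutadapt, FastQC, HISAT2, StringTie, edgeR and GRCh38.p13, without versions.

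Counts were fitted as 4 group means over 12 libraries with edgeR 4.0.16 (R 4.3.3; TMM, filterByExpr, quasi-likelihood test, Benjamini-Hochberg over 18143 genes, called under 0.05). Intervals are at 95%. The fit was tested on simulated data with 4-fold changes and a dispersion, the spread between libraries, of 0.05. The common dispersion of these data was 0.232, so that test does not show how well smaller changes are recovered here. FPKM served for levels between genes, CPM for differences. Alternatives used DESeq2 1.42.0 and limma 3.58.1, where fold changes are on the log2(FPKM + 1) or log2(FPKM + 0.1) scale.

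The members and lists were chosen with earlier results of these data known. Named genes were all subunits, with per-library values for markers, cutting subunits and called genes, POMP, NFE2L1, NFE2L2, and up to 4 called genes per other list. Counts of pseudogene copies were at most 4.60% of their parent's (PSMC6). Reads of FTSJ3 and DNAJC2, opposite PSMC5 and PSMC2, came to 53.3% and 28.3% of theirs. Values of 3 listed genes are not reported here.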

Additional observations from a re-analysis of the deposited data

Results flagged for a closer look

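Among the genes named, the XMU-MP1 effect differed between knockdown and control cells, by the interaction term of edgeR, for ZFAND5 and SYVN1. ZFAND5 had 131, 124 and 139 CPM in siYT_XMU, against 230, 315 and 259 CPM in siYT_DMSO, and 59.4, 119 and 55.2 CPM in siC_XMU, against 46.4, 46.1 and 42.8 CPM in siC_DMSO. Its inhibitor effect was lower in knockdown cells by a log2 difference of -1.82 (SE 0.36, adjusted p = 0.0265), a call lost in 5 of 18 alternatives (adjusted p up to 0.0835). SYVN1 had 164, 162 and 150 CPM in siYT_XMU, against 145, 183 and 155 CPM in siYT_DMSO, and 131, 144 and 123 CPM in siC_XMU, against 74.6, 75.5 and 72.3 CPM in siC_DMSO. The log2 difference was -0.86 (SE 0.19, adjusted p = 0.0353), a call lost in 11 of 18 alternatives (adjusted p up to 0.119). Groups of 3 libraries were not tested for outlying samples.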

How the results depend on the processing

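In siYT_DMSO against siC_DMSO, 0 were called higher and 4 lower; DESeq2 gave 1 higher, a fit to the compared groups alone 5 higher and 8 lower, and leaving out 1 library 0 to 6 higher and 3 to 9 lower, the highest without c of siYT_XMU. In siC_XMU against siC_DMSO, 1 was called lower; DESeq2 and RLE scaling gave 2, the compared groups alone 3, no filter and log2(FPKM + 0.1) 0, and leaving out 1 library 0 to 2. In siYT_XMU against siYT_DMSO, 0 were called higher and 2 lower; DESeq2 gave 2 higher, the compared groups alone 1 lower, and leaving out 1 library 0 to 7 higher and 1 to 2 lower. In siYT_XMU against siC_XMU, 1 was called higher and 4 lower; DESeq2 gave 13 higher, RLE scaling 8, and no filter, the compared groups alone, log2(FPKM + 1) and log2(FPKM + 0.1) 0, while lower calls were 9 and 10 on the FPKM scales; leaving out 1 library gave 0 to 12 higher and 4 to 5 lower. The cause was not tested. In that comparison AKIRIN2 and NPLOC4 turned to -0.032 and -0.031 on the log2(FPKM + 1) scale and to -0.033 and -0.034 on the log2(FPKM + 0.1) scale.

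A replicate block by letter left every such count unchanged, with 4 genes lower and 0 higher in siYT_DMSO against siC_DMSO. Letters were compared on log2 CPM after each gene's group mean had been subtracted. On what remained, all 18 same-letter pairs correlated above 0 (0.0177 to 0.276), 9 of them above 0.1. Among libraries of the other groups, each of the 12 had its highest mean correlation with those of its own letter. The main fit left the letters out, so it does not account for a pairing of libraries by letter. On the FPKM scales fold changes were lower in both comparisons of siYT_XMU. In siYT_XMU against siYT_DMSO the median log2 fold change of the proteasome genes was 0.04, and -0.40 on log2(FPKM + 1) and -0.42 on log2(FPKM + 0.1), where that of all genes was -0.18 and -0.36. In siYT_XMU against siC_XMU it was 0.08, and -0.43 and -0.45, where that of all genes was -0.19 and -0.43, and PSMB6 was at 0.63, and 0.01 on both. Intervals within 2-fold were 32 genes in siYT_XMU against siC_XMU, and 19 and 16 on those scales, and 34 for the interaction, and 8 and 5.

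Summed levels with all 48 genes moved by less than 1 SD. The shallow library limits precision in siYT_XMU.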
